A study of Homo sapiens with 6 samples.

Results

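The chaperones and disulfide isomerases of the endoplasmic reticulum (ER) were followed on 6 Affymetrix oligonucleotide arrays of human SH-SY5Y neuroblastoma cells. The members were 10 genes, HSPA5, HYOU1, HSP90B1, DNAJC10, PDIA3, PDIA4, PDIA6, P4HB, CALR and CANX, chosen by name, and every probe set that the platform annotation gives to one of them was used. They had 21 of the 22215 probe sets tested, for 10 of 11963 genes. A further 2 probe sets are annotated jointly to HSP90B1 and the microRNA gene MIR3652 and are given apart. Cells were kept for 4 h with the solvent alone (DMSO 0.6%, 3 flasks) or with 140 nM free bilirubin in that solvent (Bf 140 nM, 3 flasks). Both groups are the same parental line, with no genetic change, and per the labels the flasks were independent biological replicates. SH-SY5Y is a single tumour-derived line, so the arrays describe that line and not neurons in tissue. Each array read the RNA of a whole flask, so a change in the makeup of the cells and a change in RNA per cell cannot be told apart.

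Proteins that enter the secretory pathway fold in the ER with the help of chaperones of the Hsp70 and Hsp90 classes, of oxidoreductases that make and reshuffle disulfide bonds, and of the lectins calnexin and calreticulin, which hold glycoproteins while they fold. When unfolded proteins accumulate, the unfolded protein response raises transcription of these genes through the factors ATF6 and XBP1. These factors act with NF-Y at ER stress response elements, in which NF-Y binds the CCAAT part and ATF6 or XBP1 the CCACG part.

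Promoter windows were read from RefSeq sequence of GRCh38.p14, from 250 bases before to 50 bases after each transcription start, and searched on both strands for 2 motifs. The ER stress response element (ERSE) was taken as CCAAT and CCACG with 9 bases of any kind between them, and ERSE-II as ATTGG and CCACG with 1 base between them. The table held 9 of the 10 members and did not list PDIA3. A match to either motif lay in 6 of the 9 genes, against 44 of 27305 genes in the table (0.161%). ERSE alone was matched in 5 of the 9 members, against 25 of all genes in the table (0.0916%), and in 7 of the 14 windows of the members, against 0.0769% of all 35116 windows. ERSE-II was matched in 1 member, against 19 of all genes (0.0696%), and in 0.0541% of all windows. No match was found for P4HB, PDIA4 and DNAJC10, which says only that these letters are not in the windows. These motifs, found in some members and not in others, were not themselves used to choose the members. The members are, however, genes of the response that acts through these elements. The shares therefore describe the windows and test nothing. Capitals mark the fixed letters of the motif, and each is written 5′ to 3′ on the strand given.
HSPA5 (chr9:125241391-125241409, minus strand): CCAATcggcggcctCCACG
HSP90B1 (chr12:103930216-103930234, plus strand): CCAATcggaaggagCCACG
HSP90B1 (chr12:103930321-103930339, minus strand): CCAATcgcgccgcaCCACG
PDIA6 (chr2:10812853-10812871, minus strand): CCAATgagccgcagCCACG
CALR (chr19:12938384-12938402, minus strand): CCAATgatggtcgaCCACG
CANX (chr5:179698778-179698796, plus strand): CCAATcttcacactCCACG
HYOU1 (chr11:119057274-119057284 and chr11:119057380-119057390, plus strand): ATTGGaCCACG

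The HSPA5 match runs in the direction of the gene, 66 to 48 bases before its start. HSP90B1 has one match in its own direction, 194 to 176 bases before the start, and one in the opposite direction, 89 to 71 bases before it. The PDIA6 match runs with the gene, 86 to 68 bases before its start. The CALR match runs against the gene, 225 to 207 bases before the start. Both HYOU1 matches also run against the gene, at 79 to 69 and 185 to 175 bases before the start. The CANX match lies in 3 windows of that gene, which have different starts. A match is a run of letters and not a shown binding site.

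**Figure D1:**
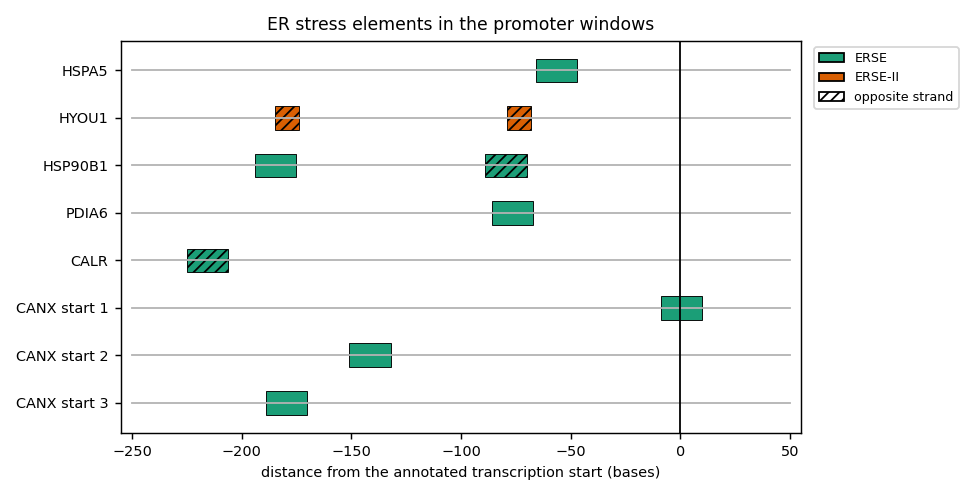
Position of each ERSE and ERSE-II match in the promoter windows of the members, in bases from the transcription start (x axis), with one row per window that holds a match and hatching for matches on the strand opposite to the gene. The match of HSPA5, that of PDIA6 and one each of HSP90B1 and HYOU1 begin 66 to 89 bases before the start.

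The values are variance-stabilised and lie on a log2 scale, on which a difference of 1 is a 2-fold change for a bright probe set. On all 6 arrays the brightest probe set of HSPA5 lay between the 95.9th and 98.1st percentile of the probe sets, that of PDIA6 between the 97.4th and 98.5th, and that of CANX between the 96.8th and 97.6th. The lowest of the brightest probe sets was that of DNAJC10, between the 63.7th and 75.4th percentile. A percentile also reflects how well a probe set hybridises, so it does not order the genes by transcript number. The array medians lay within 0.152 of each other, and the arrays correlated with each other at 0.971 to 0.996. The third DMSO array stood apart in the control probe sets that compare the 3′ and 5′ ends of a transcript. For beta-actin the 3′ minus 5′ difference was 0.24, 0.49 and 0.89 on the Bf arrays and 0.10, 0.32 and 2.21 on the DMSO arrays. The means were 0.54 with Bf and 0.88 with DMSO (exact two-sided permutation test, p = 0.9). As its smallest possible p is 0.1, this test could hardly show a group difference for either control. For GAPDH it was 0.20, 0.22 and 0.38 with Bf and 0.19, 0.10 and 1.30 with DMSO (exact two-sided permutation p = 1). Of 17 noradrenergic neuroblast markers 15 were measured, 13 of them above the median probe set, with a mean level of 11.41 to 11.50 on the DMSO arrays and 11.29 to 11.67 on the Bf arrays, and DBH, the enzyme that makes noradrenaline, lay at or above the 97.3rd percentile on every array. Below the median probe set were HAND2, with a mean at the 45.9th percentile, and TH, the rate-limiting enzyme of the same pathway, at the 11.7th, both named after their values were seen. Of 16 mesenchymal or Schwann-like markers 14 were measured, 9 of them above the median probe set, with a mean level of 8.43 to 8.72 with DMSO and 8.48 to 8.61 with Bf. The highest, by mean percentile, were TWIST1 at the 97.5th, COL3A1 at the 85.0th and FN1 at the 83.3rd. The lowest was PRRX1 at the 14.0th, all named after their values were seen. Apart from HSPA5, 6847 of the 11963 genes, each read by its brightest probe set, lay above the median probe set.

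No chaperone or isomerase gene passed the test between Bf and DMSO at 4 h. With limma and Benjamini-Hochberg adjustment over all probe sets, 0 of the 21 member probe sets passed an adjusted p of 0.10, as did 0 of all 22215 (0%), and the adjusted p of every member was 1.00. At an unadjusted p of 0.05, 0 of 21 passed, against 17 of 22215 (0.0765%), and with the replicate number as a block 0 of 21, against 92 of 22215 (0.414%). Both shares lie far below the 0.05 of probe sets that such a cut would pass if nothing differed. Both fits were therefore conservative here, and the 0 of 21 says little about the members. Significance analysis of microarrays (SAM), the test named in the methods, also called 0. The groups overlapped in all 21 member probe sets. Over all probe sets 2.66% did not overlap, 1.68% higher and 0.981% lower with Bf. That share is so small that overlap in all 21 does not set the members apart. The median difference over the 10 genes, each by its brightest probe set with 1 symbol, was 0.05 on the log2 scale. It was 0.03 over all probe sets and 0.05 over the 11107 probe sets with a mean above the median. Of the 10 genes 6 lay above 0, beside 63.2% of all probe sets and 70.2% of the brighter ones. The SEs and intervals given here and for each gene below come from the fit without the replicate block. In it the 95% confidence interval excluded a 2-fold change in either direction for 16 of the 21 member probe sets. It also did so for the brightest probe set with 1 symbol of each of the 10 genes. Over all probe sets the share that excluded it was 97.8%, and over the brighter ones 95.9%. For dim probe sets, whose scale is compressed, an interval within 1 of 0 need not exclude a 2-fold change.

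**Figure D2:**
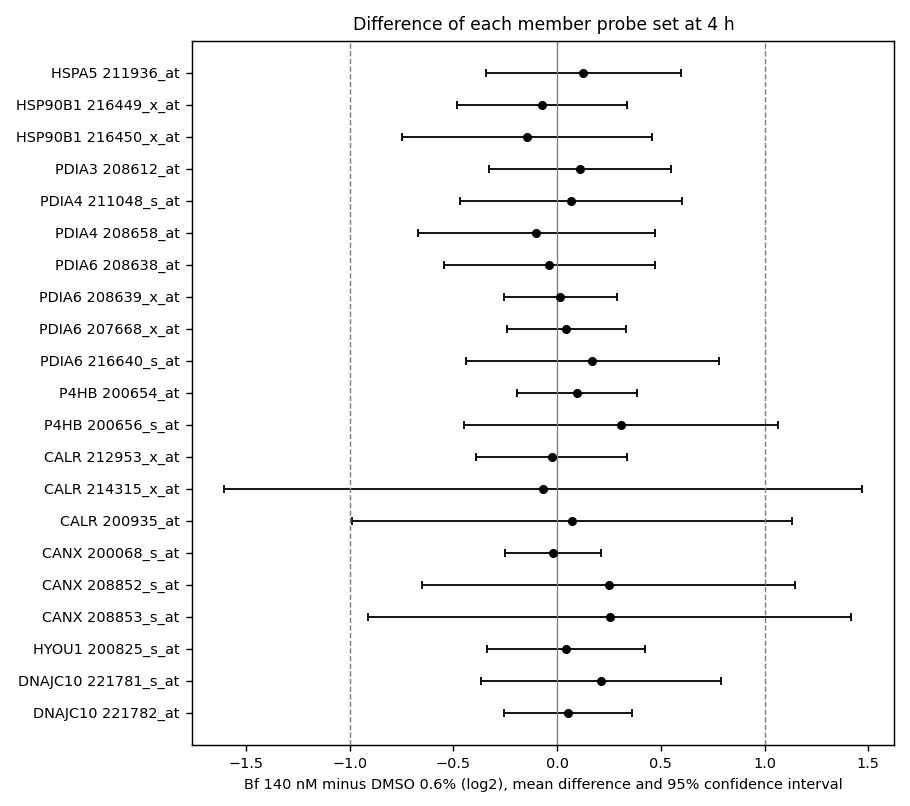
Bf 140 nM minus DMSO 0.6% at 4 h for each of the 21 member probe sets (points, log2 scale), with dashed lines at a 2-fold change. Bars are the 95% confidence interval from limma without the replicate block (n = 3 against 3). Every interval includes 0, and the widest is that of a CALR probe set, from -1.60 to 1.47.

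HSPA5 (GRP78 or BiP), the Hsp70 chaperone of the ER lumen that also holds the stress sensors inactive, was read by 1 probe set. It stood at 12.27, 12.53 and 12.36 on the Bf arrays and at 12.20, 12.69 and 11.88 on the DMSO arrays. The third DMSO array was the lowest of the 6 and the second DMSO array the highest, and the groups overlapped. The difference was 0.13 (SE 0.20), a ratio of 1.09 with a 95% interval from 0.787 to 1.51. By replicate number it was 0.07, -0.16 and 0.47, so its direction was not the same in the 3 pairs, and without the third DMSO array it was -0.06.

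HYOU1 (ORP150), a large Hsp70-related protein that acts as a nucleotide exchange factor of HSPA5, was also read by 1 probe set. It stood at 11.20, 11.33 and 11.14 with Bf and at 11.25, 11.45 and 10.85 with DMSO. The DMSO values lay on both sides of the Bf values, and the third DMSO array was again the lowest. The difference was 0.04 (SE 0.16), with an interval from -0.34 to 0.42. Without the third DMSO array it was -0.13.

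HSP90B1 (GRP94), the Hsp90 chaperone of the ER, had 2 probe sets of its own, and neither followed HSPA5. The brighter one, 216449_x_at, stood at 10.90, 10.75 and 11.22 with Bf and at 10.74, 11.08 and 11.26 with DMSO. The arrays with replicate number 3 were the highest of both groups, which overlapped. The difference was -0.07 (SE 0.17), a ratio of 0.951 with an interval from 0.716 to 1.26. Without the third DMSO array it was 0.04. The dimmer one, 216450_x_at, stood at 7.36, 7.75 and 7.81 with Bf and at 7.36, 7.64 and 8.36 with DMSO, a difference of -0.15 (SE 0.26), or 0.14 without the third DMSO array. The 2 probe sets annotated jointly with MIR3652 gave differences of 0.01 (SE 0.14) for 200599_s_at and 0.04 (SE 0.18) for 200598_s_at. The former stood at 12.53, 12.78 and 12.84 with Bf and at 12.46, 12.82 and 12.85 with DMSO, and in both groups the array with replicate number 1 was the lowest.

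DNAJC10 (ERdj5), a J-domain protein that reduces disulfide bonds of proteins bound for degradation, had 2 probe sets. The brighter one, 221781_s_at, stood at 9.60, 9.26 and 9.29 with Bf and at 9.44, 9.48 and 8.58 with DMSO. The third DMSO array was the lowest and the other DMSO values lay within the range of the Bf values. The difference was 0.21 (SE 0.25), the largest in size among the brightest probe sets of the 10 genes, and without the third DMSO array it was -0.08. The other probe set, 221782_at, gave 0.05 (SE 0.13), or -0.03 without that array.

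**Figure D3:**
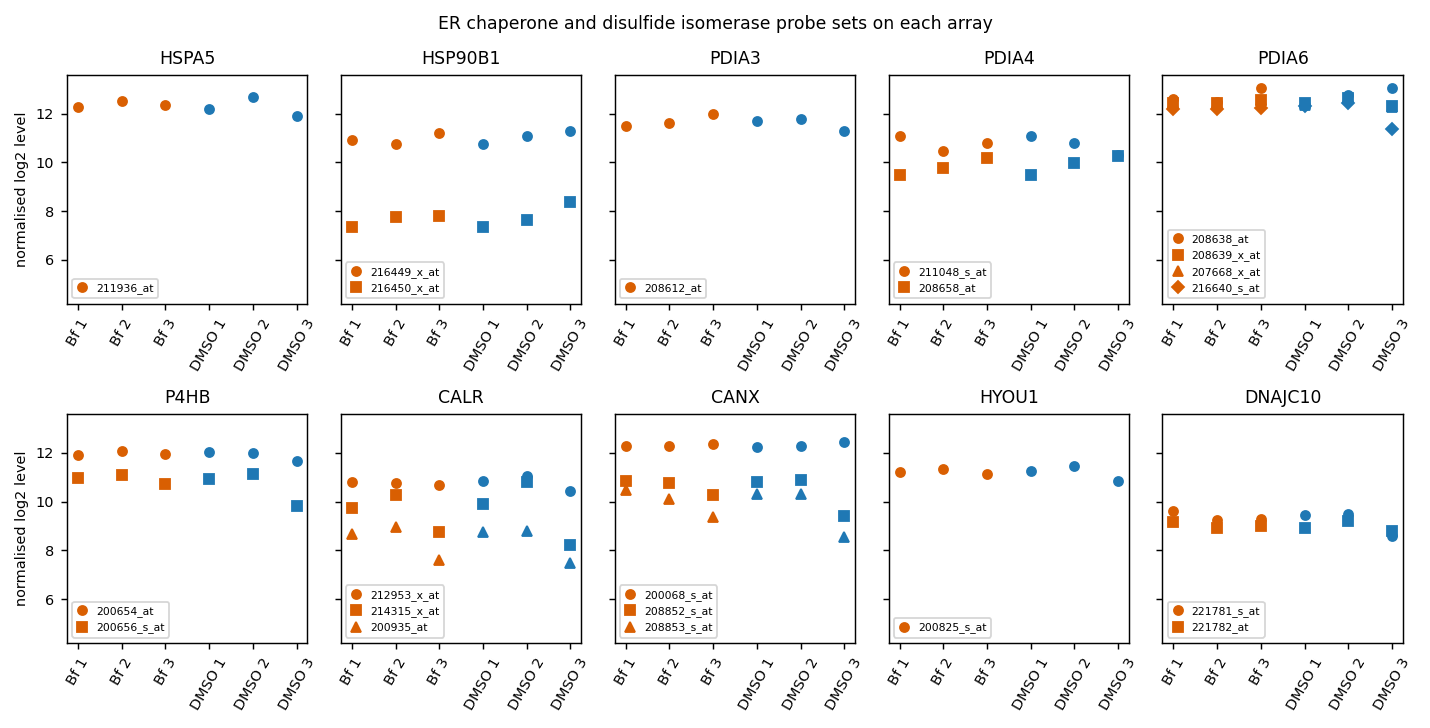
Normalised log2 level of each of the 21 member probe sets (y axis) on each of the 6 arrays (x axis), with one panel per gene and with orange points for Bf 140 nM and blue points for DMSO 0.6%. The third DMSO array is low for HSPA5, HYOU1 and most probe sets of CALR, CANX and P4HB, and high for both HSP90B1 probe sets.

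PDIA3 (ERp57), the isomerase that works with calnexin and calreticulin on glycoproteins, was read by 1 probe set. It stood at 11.47, 11.63 and 12.00 with Bf and at 11.71, 11.80 and 11.27 with DMSO. The third Bf array was the highest and the third DMSO array the lowest of the 6, while in the other replicate numbers the DMSO array was the higher one. The difference was 0.11 (SE 0.19), with an interval from -0.33 to 0.55. By replicate number it was -0.23, -0.17 and 0.73, and without the third DMSO array it was -0.05.

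PDIA4 (ERp72), an isomerase with additional thioredoxin-like domains, had 2 probe sets with unlike profiles. The brighter one, 211048_s_at, stood at 11.08, 10.48 and 10.78 with Bf and at 11.07, 10.78 and 10.29 with DMSO, a difference of 0.07 (SE 0.23). The other, 208658_at, stood at 9.46, 9.77 and 10.16 with Bf and at 9.47, 9.97 and 10.27 with DMSO, a difference of -0.10 (SE 0.24). The third DMSO array was the lowest of the 6 for the former and the highest for the latter. Without it the difference was -0.14 for the former and 0.08 for the latter. The latter was the 1 member probe set that had the same direction in all 3 replicate numbers (-0.00, -0.20 and -0.10). Over all probe sets 8.96% were higher and 4.7% were lower with Bf in each replicate number.

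PDIA6 (P5), an isomerase that binds HSPA5 and acts on the stress sensors, had 4 probe sets. The brightest, 208638_at, stood at 12.58, 12.46 and 13.03 with Bf and at 12.36, 12.76 and 13.07 with DMSO. It was highest on the arrays with replicate number 3 in both groups, which overlapped, and the difference was -0.04 (SE 0.22), or 0.13 without the third DMSO array. Another, 216640_s_at, stood at 12.20, 12.18 and 12.25 with Bf and at 12.31, 12.43 and 11.38 with DMSO, so that the third DMSO array alone lay below the others. Its difference was 0.17 (SE 0.26), or -0.16 without that array. The remaining probe sets gave 0.02 (SE 0.12) for 208639_x_at and 0.04 (SE 0.12) for 207668_x_at, which became -0.06 and -0.02 without that array.

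P4HB (PDI), the founding member of the isomerase family and a subunit of prolyl 4-hydroxylase, had 2 probe sets. The brighter one, 200654_at, stood at 11.93, 12.09 and 11.96 with Bf and at 12.04, 11.98 and 11.68 with DMSO. The groups overlapped, and the difference was 0.10 (SE 0.12) with an interval from -0.19 to 0.38, or -0.01 without the third DMSO array. The other, 200656_s_at, had the largest difference of the 21 member probe sets, 0.31 (SE 0.32), and the lowest unadjusted p in limma, 0.370. It stood at 10.95, 11.09 and 10.72 with Bf and at 10.91, 11.12 and 9.81 with DMSO. Replicate numbers 1 and 2 differed by 0.04 and -0.03 and replicate number 3 by 0.91, so that most of the difference lay in replicate number 3, and without the third DMSO array it was -0.09.

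CALR (calreticulin), the soluble lectin and calcium-binding protein of the ER lumen, had 3 probe sets. The brightest, 212953_x_at, stood at 10.80, 10.76 and 10.67 with Bf and at 10.83, 11.03 and 10.45 with DMSO. The Bf values lay within the range of the DMSO values, and the difference was -0.03 (SE 0.16), or -0.19 without the third DMSO array. The other probe sets spread much more. The values of 214315_x_at were 9.72, 10.28 and 8.74 with Bf and 9.92, 10.81 and 8.22 with DMSO, a within-group SD of 1.08 that exceeded that of 99.955% of all probe sets. The values of 200935_at were 8.67, 8.97 and 7.61 with Bf and 8.77, 8.79 and 7.47 with DMSO, with an SD of 0.736. Both were lowest on the arrays with replicate number 3 of both groups, and their differences were -0.07 (SE 0.66) and 0.07 (SE 0.45). Without the third DMSO array these became -0.78 and -0.37.

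CANX (calnexin), the membrane-bound lectin, had 1 steady probe set and 2 that spread. The brightest, 200068_s_at, stood at 12.26, 12.27 and 12.35 with Bf and at 12.22, 12.29 and 12.42 with DMSO. All 6 values were close together and the groups overlapped, with a difference of -0.02 (SE 0.10) and an interval from -0.25 to 0.21. The probe set 208853_s_at stood at 10.47, 10.09 and 9.38 with Bf and at 10.30, 10.32 and 8.56 with DMSO, a difference of 0.25 (SE 0.50). The probe set 208852_s_at likewise gave 0.25 (SE 0.38). Without the third DMSO array these became -0.33 and -0.22, and that of the brightest probe set 0.04. In both of these the arrays with replicate number 3 were the lowest of their group, and the third DMSO array the lowest of all.

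The replicate numbers did not move the members the same way. In replicate number 1 the median difference of the 21 member probe sets was 0.01, and 11 of them were higher with Bf, beside 57.3% of all probe sets and 64.4% of those with a mean above the median. In replicate number 2 it was -0.20 and 18 of 21 were lower with Bf, beside 50.9% of all probe sets and 75.3% of those brighter ones. In replicate number 3 it was 0.28 and 16 of 21 were higher with Bf, beside 57.5% of all probe sets and 79.9% of the brighter ones. The brighter probe sets of the array as a whole thus turned the same way between replicate numbers 2 and 3.

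**Figure D4:**
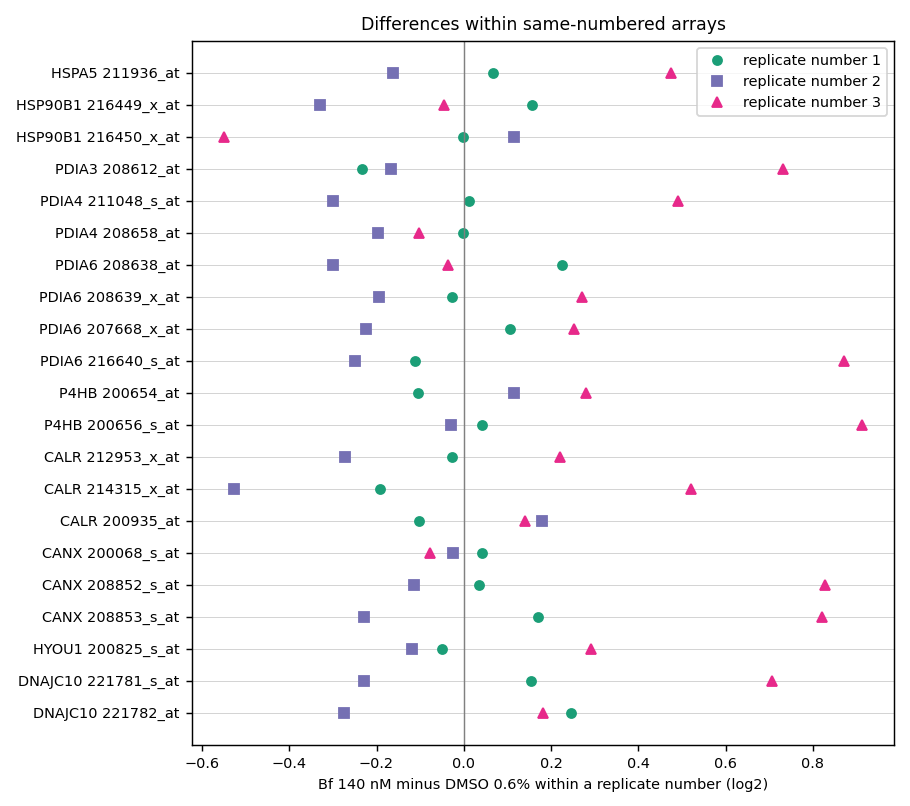
Bf minus DMSO within each replicate number (x axis, log2), with one row per member probe set and one symbol per replicate number. Most member probe sets lie below 0 in replicate number 2 (18 of 21) and above 0 in replicate number 3 (16 of 21).

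The third DMSO array lay more than 0.5 below the mean of the other DMSO arrays in 10 of the 21 member probe sets, beside 11.3% of all probe sets and 18.8% of the brighter ones. The median of this deviation was -0.48 over the members and -0.11 over the brighter probe sets, and for the third Bf array the member median was -0.04. The deepest were CALR 214315_x_at at -2.14 and CANX 208853_s_at at -1.74. The same array had the largest beta-actin and GAPDH 3′ minus 5′ differences, and the part of RNA completeness in these values was not tested. Without that array the sign of the difference changed for 19 of the 21 member probe sets, beside 33.3% of all probe sets and 42.5% of the brighter ones. The median over the member probe sets became -0.06, beside 0.008 over all probe sets and 0.008 over the brighter ones. The within-group SD had a median of 0.33 over the member probe sets and 0.21 over the brighter ones.

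**Figure D5:**
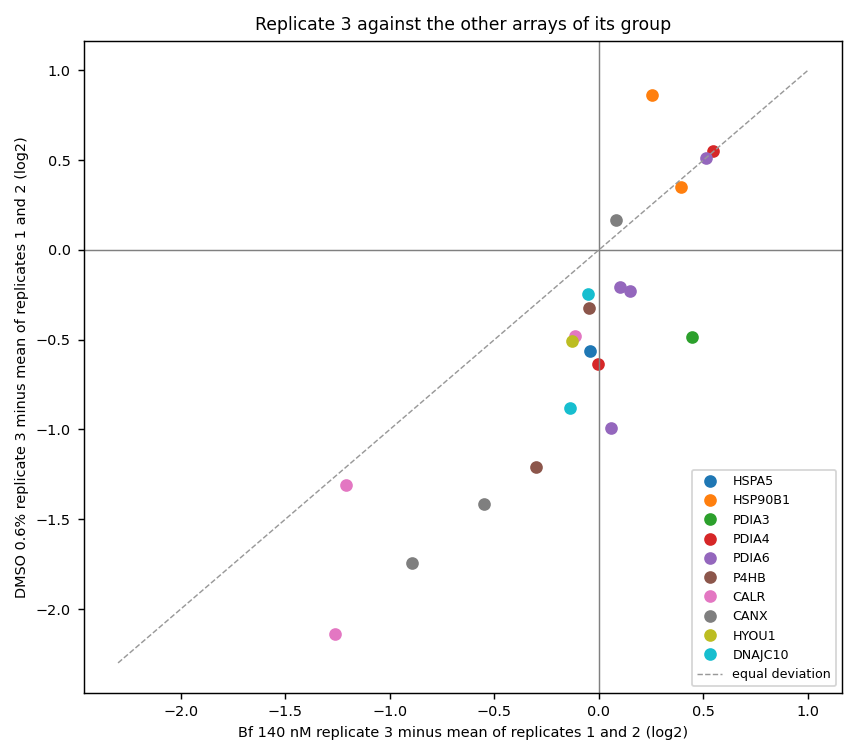
Deviation of the third array from the mean of the other arrays of its group (log2), for Bf (x axis) and DMSO (y axis), with one point per member probe set coloured by gene and a dashed line where both are equal. The DMSO deviations reach -2.14 and have a median of -0.48, whereas HSP90B1, PDIA4 208658_at, PDIA6 208638_at and CANX 200068_s_at are higher on the third array of both groups.

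The members fell at very different distances from HSPA5 and from HSP90B1 in their profile over the 6 arrays. Likeness was taken as the root mean square difference between deviations from each gene's own mean, with each gene read by its brightest probe set, over 6847 genes with a mean above the median. Nearest to HSPA5 were COL4A2, ARMC9, CYTL1, LY6E and GALNT14, at 0.06 to 0.08, where the deviations of HSPA5 itself had a root mean square of 0.25. Of the 9 other members 4 lay in the nearest 20% of genes to HSPA5, namely HYOU1 at rank 32, CALR at 173, P4HB at 541 and PDIA3 at 966. DNAJC10 was at rank 2158, CANX at 3660, PDIA4 at 4780, HSP90B1 at 5457 and PDIA6 at 6073. Some of these ranks depended on the probe set. When each gene was read by its nearest probe set, PDIA6 was at rank 522 (207668_x_at) and DNAJC10 at 1050 (221782_at). HYOU1, CALR, P4HB and PDIA3 were then at ranks 48 to 1324, and CANX, PDIA4 and HSP90B1 at ranks 4289 to 5890. The genes nearest to HSP90B1 were LAMP1, TPRKB, BIRC2, TSNAX and VBP1, each at 0.04. Of the 9 other members PDIA6, at rank 79, and CANX, at rank 1184, lay in the nearest 20%, and the others at ranks 5082 to 6527. By nearest probe set, PDIA6 was at rank 94, CANX at 1428, PDIA4 at 1646 (208658_at) and DNAJC10 at 4264. The others were then at ranks 5381 to 6086. These ranks describe 6 arrays, on which the third DMSO array carries much of the spread, and are given without a test.

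Other genes of ER folding did not pass the test either. Of 52 genes listed, which include co-chaperones, glycosidases and further oxidoreductases, 42 were measured and 0 passed in either direction in limma, with 0 at an unadjusted p of 0.05. Their median difference was 0.07, and 32 of the 42 lay above 0 (76.2%), beside the 63.2% of all probe sets and 70.2% of the brighter ones. Without the third DMSO array 32 of the 42 lay above 0, beside 11828 of all 22215 probe sets and 5851 of the 11107 brighter ones. DNAJC3 (p58IPK), a co-chaperone of HSPA5, stood at 7.95, 8.02 and 8.21 with Bf and at 7.58, 7.96 and 7.92 with DMSO, a difference of 0.24 (SE 0.14). Its groups overlapped only through the first Bf array. SELENOF, a selenoprotein of the glycoprotein folding cycle, differed by -0.26 (SE 0.16), TXNDC15 by 0.19 (SE 0.14) and P4HA1, the catalytic partner of P4HB, by 0.21 (SE 0.18), the last being 0.06 without the third DMSO array. ERSE or ERSE-II was matched in 3 of the 45 genes of this list that the promoter table held, ERO1B, CRELD2 and SDF2L1.

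Of 18 regulators of the unfolded protein response, all were measured and 0 passed in either direction. Their median difference was 0.05, as over the brighter probe sets. Above 0 lay 14 of them (77.8%), beside 63.2% of all probe sets and 70.2% of the brighter ones. Without the third DMSO array 6 of the 18 lay above 0, beside 11828 of all 22215 probe sets and 5851 of the 11107 brighter ones. DDIT3 (CHOP), the stress-induced transcription factor, was the only one of the 18 with an unadjusted p under 0.05 in limma, beside 17 of all 22215 probe sets. It stood at 8.86, 8.80 and 8.72 with Bf and at 8.42, 8.59 and 8.59 with DMSO, without overlap, as did 2.66% of all probe sets. The difference of DDIT3 was 0.26 (SE 0.10) at an adjusted p of 1.00, and it was named for its low p. HERPUD1, a membrane protein of ER-associated degradation, differed by 0.25 (SE 0.16), CREB3L1 by -0.13 (SE 0.11) and NFYA, a subunit of NF-Y, by 0.21 (SE 0.19). Without the third DMSO array these were 0.11 for HERPUD1, -0.08 for CREB3L1 and -0.0034 for NFYA. A motif was matched in XBP1 and HERPUD1, 2 of the 17 genes of this list in the table. The receptors that return KDEL proteins such as HSPA5 and CALR to the ER were measured for KDELR1 (0.21, SE 0.45) and KDELR3 (0.05, SE 0.10), and KDELR1 was also low on the third DMSO array, by -1.52 against the other DMSO arrays, and its difference was -0.29 without that array.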

How the data were processed

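The authors hybridised labelled cRNA of 6 flasks, computed cell intensities with GCOS and applied variance-stabilizing normalization in R 2.5.0. The deposited values are on a log2-like scale that is compressed for dim probe sets, which understates differences of dim probe sets. The sources used here do not name the step that summarised probes to probe sets. Arrays carry no read depth, and their number limits the precision. The 1-h and 24-h arrays were not used here.

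Of 22277 probe sets 62 controls were left out and 22215 tested. The platform annotation gave 1 symbol to 19064, several to 1043 and none to 2108. Differences were fitted with limma 3.58.1 (lmFit and eBayes, R 4.3.3), two-sided, with Benjamini-Hochberg adjustment over all probe sets and a threshold of 0.10. The fit was also run on simulated data with independent noise on each array. That simulation held no replicate effects and no deviant array, so it does not bear on how the fit handles them. A gene stood for its probe set with the highest mean among those with 1 symbol, also in the comparison of profiles. For HSP90B1 this was 216449_x_at (mean 10.99, difference -0.07). It left out the brighter joint probe sets 200599_s_at (mean 12.71, difference 0.01) and 200598_s_at (mean 11.63, difference 0.04). All 10 members were named, with up to 4 genes of lowest unadjusted p from each other list, and for HSPA5 and HSP90B1 the 5 nearest profiles. The members and lists were chosen with earlier results of these data known, so no list was tested. Deviations from the group means correlated at 0.60, 0.23 and 0.57 between arrays of the same replicate number. Each was above 0.1, so the numbers were taken to pair the arrays. That choice came from these data and not from a stated batch. The sample descriptions also carry the numbers 3, 5 and 6 in both groups, on replicate numbers 1, 2 and 3. The labels do not say that a number marks a shared day or batch. Alternatives were a replicate block, other scalings, filters, thresholds and probe set rules, SAM, a beta-actin 3′ minus 5′ covariate and leaving out arrays.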

Additional observations from a re-analysis of the deposited data

How the results depend on the processing

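The count of member probe sets past the threshold was 0 under every alternative run, as was that of the other ER folding genes. With the replicate block on the pairing, 0 member probe sets passed, 0 had an unadjusted p under 0.05 (all probe sets, 92) and the lowest member p in limma was 0.0936, so the block changed no call. Leaving out arrays, among them both arrays of replicate number 2 or 3, an alternative chosen after seeing the data, moved the median over the 10 genes from -0.07 to 0.12 and the number of member probe sets without overlap from 0 to 4. The 4 came without replicate number 3, where 19.7% of all probe sets did not overlap. The difference then ranged from -0.0604 to 0.343 for HSPA5, -0.218 to 0.0556 for HSP90B1, -0.199 to 0.249 for PDIA3, -0.145 to 0.252 for PDIA4, -0.222 to 0.133 for PDIA6, -0.0112 to 0.165 for P4HB, -0.186 to 0.106 for CALR, -0.0661 to 0.0357 for CANX, -0.127 to 0.175 for HYOU1 and -0.0827 to 0.430 for DNAJC10. With the beta-actin covariate the sign turned for HSP90B1 (0.000252), PDIA4 (-0.0443), PDIA6 (0.0664), CANX (0.0101) and HYOU1 (-0.0384). When all probe sets of a gene entered as their median, it turned for PDIA4 (-0.0166), PDIA6 (0.0306) and CANX (0.25). The cause was not tested. In the fit without the replicate block, with 3 arrays a group, the intervals of 5 member probe sets reached past a 2-fold change. With the block, the bounds of these 5 intervals lay between -0.44 and 0.68. That narrowing rests on a pairing chosen by correlations in these same data, and the numbers shared in the sample descriptions are not stated to mark a batch.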
